A study of Homo sapiens with 16 samples.

Results

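A set of 10 genes of iron transport and storage was followed in HUH6 cells, a human hepatoblastoma line: TF, TFRC, TFR2, FTH1, FTL, SLC40A1, SLC11A2, HAMP, IREB2 and CP. They were taken by name as a list of iron metabolism genes, chosen with earlier results of these data known. All 10 were present among the 58735 genes of the deposited count table, where Ensembl identifiers were matched to symbols through GENCODE release 29. The cells were given DMSO, the solvent, or 100 µM SLC-0111, also called U-104, which inhibits the carbonic anhydrases CAIX and CAXII. Both treatments were run in normoxia and in hypoxia at an oxygen partial pressure of 1%, for 48 h, which gave 4 groups of 4 libraries. The labels describe the libraries of a group as technical replicates of this 1 line, so each p-value below measures the spread between such libraries and not between separate cultures.

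Hepatocytes are the main source of plasma transferrin, which carries iron to the transferrin receptor on dividing cells. Inside the cell, iron that is not used is stored in ferritin, a shell of heavy and light chains, and ferroportin is the route by which it leaves. When iron is scarce, iron regulatory proteins bind a stem-loop called the iron-responsive element: bound in the 5′ untranslated region it blocks translation, as in the ferritin chains and ferroportin, and bound in the 3′ untranslated region of the transferrin receptor it protects the mRNA. Hepcidin, a peptide hormone of hepatocytes, causes ferroportin to be degraded. RNA counts report neither this translation nor the protein, and in bulk RNA fewer cells with a transcript and less of it per cell cannot be told apart.

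Matches to an iron-responsive element pattern are shown first because their place, at the 5′ or the 3′ end of the mRNA, sets FTH1, FTL and SLC40A1 apart from TFRC. The pattern searched was a C, then 5 bases, the loop CAGTGN, and 5 bases that pair with the first 5, with G-T pairs allowed; it was looked for in GENCODE 29 protein-coding transcripts, build GRCh38, on the transcript strand. It was found in 290 of 19659 protein-coding genes, or 1.48%, and in 5 of the 10 genes. The sequences are written 5′ to 3′ with the loop in capitals and 6 bases on each side of the pattern. The sites of FTH1, FTL and SLC40A1 lay in 5′ untranslated regions.
FTH1, chr11:61967574-61967602, minus strand: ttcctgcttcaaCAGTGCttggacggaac
FTL, chr19:48965335-48965363, plus strand: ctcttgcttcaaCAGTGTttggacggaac
SLC40A1, chr2:189580661-189580689, minus strand: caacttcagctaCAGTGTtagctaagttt
TFRC held 4 sites, all in its 3′ untranslated region.
TFRC site 1, chr3:196050979-196051007, minus strand: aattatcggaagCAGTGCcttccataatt
TFRC site 2, chr3:196050575-196050603, minus strand: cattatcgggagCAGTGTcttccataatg
TFRC site 3, chr3:196050510-196050538, minus strand: ctgtatcggagaCAGTGAtctccatatgt
TFRC site 4, chr3:196050463-196050491, minus strand: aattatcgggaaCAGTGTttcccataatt
The loops of FTH1 and FTL had the same 5 bases on each side, and the 4 TFRC loops stood in stems that differed from one another. TF also held 1 match, in the 3′ untranslated region of an unusually long GENCODE model. A match describes letters only. The pattern required all 5 pairs without a gap, so a gene without a match, such as SLC11A2, may still hold an element of another shape.

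All 10 genes had counts and passed the filter on low counts, HAMP through hypoxia libraries only, and the deposited raw counts were scaled to CPM, counts per 1000000 counts of the library, with TMM factors. The 16 libraries held from 3298106 counts, in hypoxia DMSO replicate 3, to 49248964, with 18275209 as the next lowest. In normoxia SLC-0111 replicate 4, protein-coding genes took 80.6% of the counts and mitochondrial genes 15.3%, the lowest and the highest share of the 16. On the first and second principal components, which held 47.9% and 18.6% of the variance, hypoxia DMSO replicates 1 and 3 stood apart from their group; with normoxia SLC-0111 replicate 4 these are the 3 libraries that stand apart. A library of normoxia SLC-0111 and a library of hypoxia DMSO have column names that give a group but conflict on the replicate number and are called unnumbered; they are listed last. CA9, the hypoxia-induced carbonic anhydrase IX used here to check the oxygen label, had 7 and 5 counts in the DMSO and SLC-0111 libraries of normoxia and 4405 and 3293 in those of hypoxia.

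**Figure D1:**
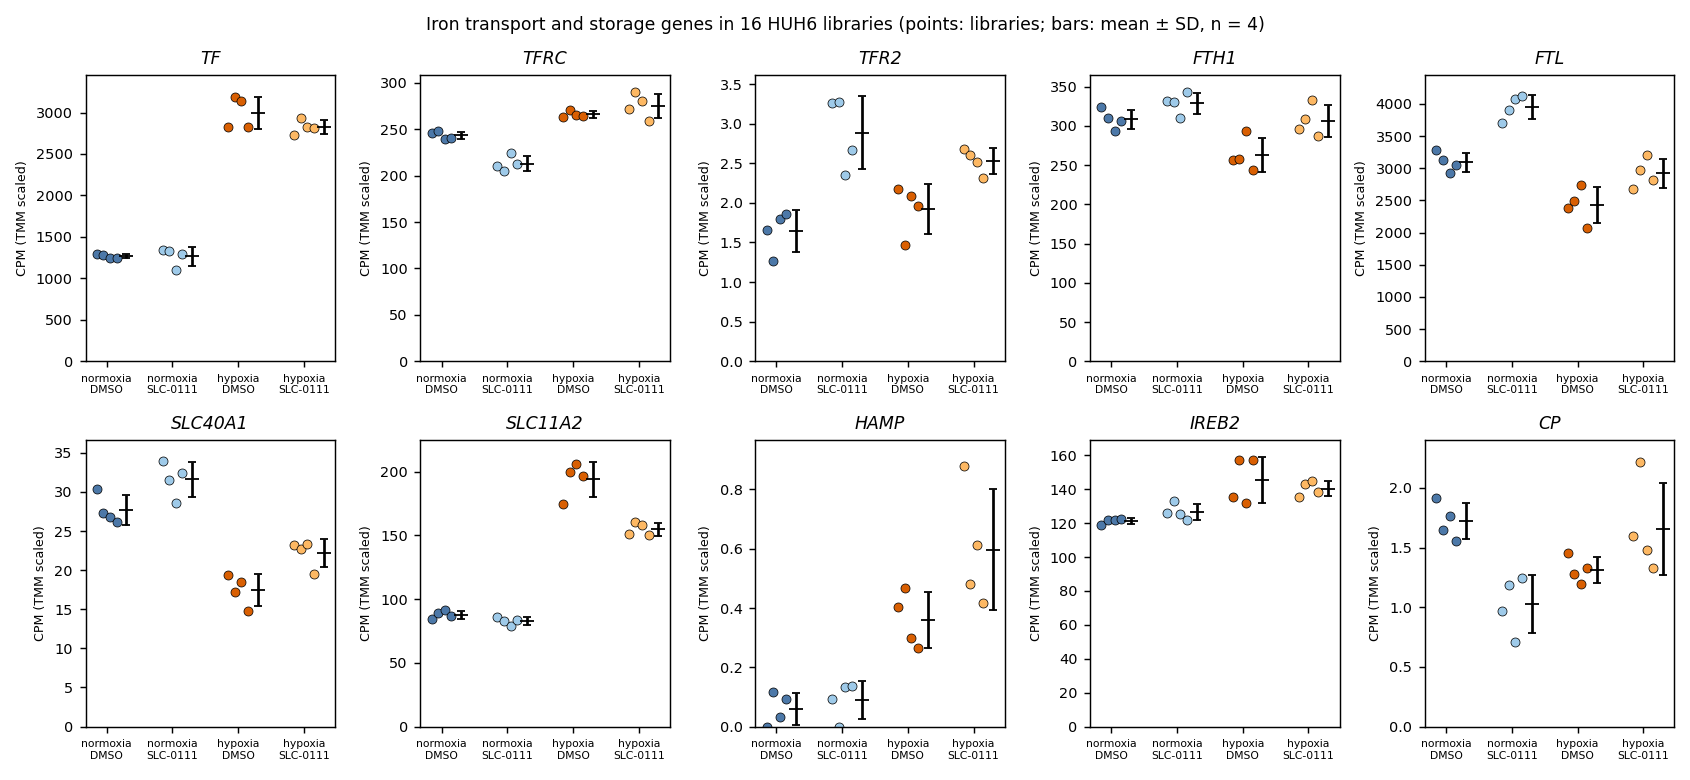
Level of each of the 10 genes in CPM on a linear axis from 0, with 1 point per library and the mean ± SD of 4 libraries beside them, by oxygen condition and treatment. TF and SLC11A2 stood higher in every hypoxia library than in every normoxia library, SLC40A1 stood lower in hypoxia within each treatment, and HAMP stayed under 1 CPM throughout.

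Hypoxia went with more TF and SLC11A2 RNA and with less SLC40A1 and FTL RNA under both treatments. Of the 10 genes, 5 rose and 3 fell with DMSO (edgeR's quasi-likelihood test, Benjamini-Hochberg adjusted p under 0.05 over 18385 genes). Among all tested genes, 49.8% were called in this comparison, 25.0% higher and 24.8% lower. With SLC-0111, 6 rose and 2 fell, against 48.2% of all tested genes called, 23.9% higher and 24.3% lower. HAMP is among those that rose and entered the test only through hypoxia libraries, where it is higher. These counts, and the medians below that include HAMP, are therefore descriptions. The median log2 change of the 10 genes was 0.15 with DMSO and 0.26 with SLC-0111, beside -0.0022 and -0.029 over all tested genes.

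TF (ENSG00000091513, chr3:133745956-133796640, GRCh38) encodes transferrin, the plasma iron carrier. Levels of TF in the normoxia libraries were 1289, 1281, 1245 and 1242 CPM with DMSO and 1340, 1329, 1099 and 1290 CPM with SLC-0111. The hypoxia libraries held 2830, 3188, 3136 and 2827 CPM of TF with DMSO and 2724, 2933, 2830 and 2817 CPM with SLC-0111. Every hypoxia library was above every normoxia library, and within each oxygen condition the treatments overlapped. With DMSO the level went from 1264 ± 24.0 CPM to 2995 ± 194 CPM (SD, n = 4), a 2.37-fold rise (log2 change 1.24 ± 0.059 SE, adjusted p = 1.72e-14). With SLC-0111 it rose 2.23-fold (log2 change 1.16 ± 0.058 SE, adjusted p = 8.73e-14). SLC-0111 itself gave log2 differences of 0.00061 in normoxia, with a 95% interval of -0.13 to 0.13, and -0.083 in hypoxia, with an interval of -0.21 to 0.042, neither of them past the test. The lowest SLC-0111 library of normoxia was replicate 4, the one with the low protein-coding share, at 1099 CPM. TF shares 112 exon bases with SRPRB on the same strand. Over the 16 libraries, TF's log2 CPM was most like that of C4orf3 (Pearson r = 0.994), FAM162A (r = 0.994) and NDRG1 (r = 0.994) among 10310 protein-coding genes, a description in which the points share 4 groups.

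TFRC (ENSG00000072274, chr3:196027183-196082189) encodes transferrin receptor 1, which takes up iron-loaded transferrin. With DMSO, TFRC stood at 246, 248, 239.9 and 241 CPM in the normoxia libraries and at 263, 271, 265 and 264 CPM in the hypoxia libraries. With SLC-0111, TFRC stood at 210.0, 205, 224 and 213 CPM in normoxia and at 272, 290.1, 280.4 and 259 CPM in hypoxia. The normoxia SLC-0111 libraries were the lowest of the 16, the normoxia DMSO libraries came next without overlap, and the hypoxia groups overlapped each other above them. The means were 244 ± 3.88 CPM, 213 ± 8.34 CPM, 266 ± 3.42 CPM and 275 ± 13.1 CPM (SD, n = 4) in the order normoxia DMSO, normoxia SLC-0111, hypoxia DMSO and hypoxia SLC-0111. Hypoxia raised TFRC 1.09-fold with DMSO (log2 change 0.13 ± 0.044 SE, adjusted p = 0.0182) and 1.29-fold with SLC-0111 (log2 change 0.37 ± 0.043 SE, adjusted p = 2.22e-07). SLC-0111 lowered TFRC in normoxia (log2 change -0.19 ± 0.043 SE, adjusted p = 0.00208) and gave 0.050 ± 0.044 in hypoxia, which did not pass (adjusted p = 0.503). The SLC-0111 effect differed between hypoxia and normoxia by 0.24 ± 0.062 on the log2 scale (adjusted p = 0.0201). The rise in hypoxia with DMSO lost its call by library size alone (adjusted p = 0.073), with no filter on low counts (0.27), without normoxia DMSO replicate 3 (adjusted p = 0.054) or hypoxia DMSO replicate 2 (0.053), and the difference of effects without normoxia SLC-0111 replicate 3 (0.052) or hypoxia SLC-0111 replicate 2 (0.060), by edgeR. The genes most like TFRC over the 16 libraries were BMP7 (r = 0.949), CDC5L (r = 0.949) and SLC51B (r = 0.933).

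TFR2 (ENSG00000106327, chr7:100620416-100642779) encodes transferrin receptor 2, a sensor of iron-loaded transferrin in hepatocytes. TFR2 was counted at 1.66, 1.27, 1.80 and 1.86 CPM in normoxia DMSO libraries and at 3.26, 3.27, 2.35 and 2.67 CPM in normoxia SLC-0111 libraries. TFR2 reached 2.18, 1.47, 2.08 and 1.96 CPM in hypoxia DMSO libraries and 2.68, 2.60, 2.52 and 2.31 CPM in hypoxia SLC-0111 libraries. Within each oxygen condition every SLC-0111 library was above every DMSO library. In normoxia TFR2 went from 1.65 ± 0.268 CPM to 2.89 ± 0.457 CPM (SD, n = 4), 1.73-fold (log2 change 0.79 ± 0.16 SE, adjusted p = 9.23e-04). In hypoxia the difference was 0.43 ± 0.17 and did not pass (adjusted p = 0.0993), although it passed with the protein-coding share of each library as a covariate (0.49, adjusted p = 0.0331) and without the 3 libraries that stand apart (0.59, adjusted p = 0.0296), and was 0.27 without hypoxia DMSO replicate 2 (adjusted p = 0.373). The hypoxia contrasts did not pass, at 0.17 with DMSO and -0.19 with SLC-0111.

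FTL fell in hypoxia and rose with SLC-0111 in each comparison, and FTH1 passed the test in 1 of the 2 comparisons of each kind. FTL (ENSG00000087086, chr19:48965301-48966878) encodes the light chain. Levels of FTL in the normoxia libraries were 3278, 3121, 2922 and 3049 CPM with DMSO and 3710, 3899, 4075 and 4124 CPM with SLC-0111. The hypoxia libraries held 2388, 2497, 2740 and 2076 CPM of FTL with DMSO and 2676, 2976, 3203 and 2824 CPM with SLC-0111. The 4 normoxia SLC-0111 libraries were the highest of all, and every hypoxia DMSO library was below every normoxia DMSO library. SLC-0111 raised FTL 1.28-fold in normoxia (log2 change 0.35 ± 0.069 SE, adjusted p = 5.05e-04) and 1.20-fold in hypoxia (log2 change 0.27 ± 0.069 SE, adjusted p = 0.00805). Hypoxia lowered FTL to 0.784 of the normoxia level with DMSO (log2 change -0.35 ± 0.069 SE, adjusted p = 1.54e-04) and to 0.739 with SLC-0111 (log2 change -0.44 ± 0.069 SE, adjusted p = 1.31e-05).

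FTH1 (ENSG00000167996, chr11:61959718-61967660) encodes the heavy chain, which oxidises the iron that ferritin takes in. With DMSO, FTH1 stood at 323, 310.0, 293 and 306 CPM in the normoxia libraries and at 256, 258, 294 and 244 CPM in the hypoxia libraries. With SLC-0111, FTH1 stood at 332, 330.1, 310.3 and 343 CPM in normoxia and at 296, 309, 333 and 287 CPM in hypoxia. The groups overlapped more than for FTL, and hypoxia DMSO was the lowest. FTH1 fell in hypoxia with DMSO (log2 change -0.24 ± 0.057 SE, adjusted p = 0.00121) and gave -0.10 ± 0.056 with SLC-0111, not past the test (adjusted p = 0.135). SLC-0111 raised it in hypoxia (log2 change 0.23 ± 0.057 SE, adjusted p = 0.00674), while in normoxia its difference of 0.093 ± 0.056 did not pass (adjusted p = 0.250). Without TMM scaling, by library size alone, the SLC-0111 call in hypoxia was lost (adjusted p = 0.083). Both ferritin genes have near-identical processed copies, 25 for FTH1, of which 18 had a count, and 16 for FTL, of which 9 had a count. The copies held 1.30% of the counts of FTH1 and its copies together, and 0.0540% for FTL. The treatment of multiply mapped reads is not given, so these shares do not show how many reads were split or left uncounted. FTH1 also shares 1267 exon bases with BEST1 on the opposite strand, and the strand setting is not given in the sources used here.

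SLC40A1 (ENSG00000138449, chr2:189560579-189583758) encodes ferroportin, the iron exporter. SLC40A1 was counted at 30.4, 27.3, 26.7 and 26.2 CPM in normoxia DMSO libraries and at 34.0, 31.6, 28.6 and 32.4 CPM in normoxia SLC-0111 libraries. SLC40A1 reached 19.4, 17.3, 18.5 and 14.8 CPM in hypoxia DMSO libraries and 23.2, 22.7, 23.3 and 19.5 CPM in hypoxia SLC-0111 libraries. Every hypoxia library was below every normoxia library, and the 2 hypoxia groups did not overlap. The means were 27.7 ± 1.90 CPM and 31.6 ± 2.23 CPM in normoxia and 17.5 ± 2.00 CPM and 22.2 ± 1.81 CPM in hypoxia (SD, n = 4), DMSO first. Hypoxia lowered it to 0.628 of the normoxia level with DMSO (log2 change -0.67 ± 0.084 SE, adjusted p = 4.07e-07) and to 0.700 with SLC-0111 (log2 change -0.51 ± 0.077 SE, adjusted p = 6.57e-06). SLC-0111 raised it in hypoxia (log2 change 0.35 ± 0.084 SE, adjusted p = 0.00536), and in normoxia the difference of 0.19 ± 0.076 did not pass (adjusted p = 0.0703). Over the alternatives the normoxia difference had adjusted p-values from 0.00390 to 0.313, and it passed, among others, without normoxia DMSO replicate 1 (0.0439), normoxia SLC-0111 replicate 4 (0.0302), hypoxia DMSO replicate 1 (0.0487) or hypoxia SLC-0111 replicate 4 (0.0491). The genes most like SLC40A1 were KIF1C (r = 0.980), CHP1 (r = 0.976) and ZC3H7B (r = 0.974).

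**Figure D2:**
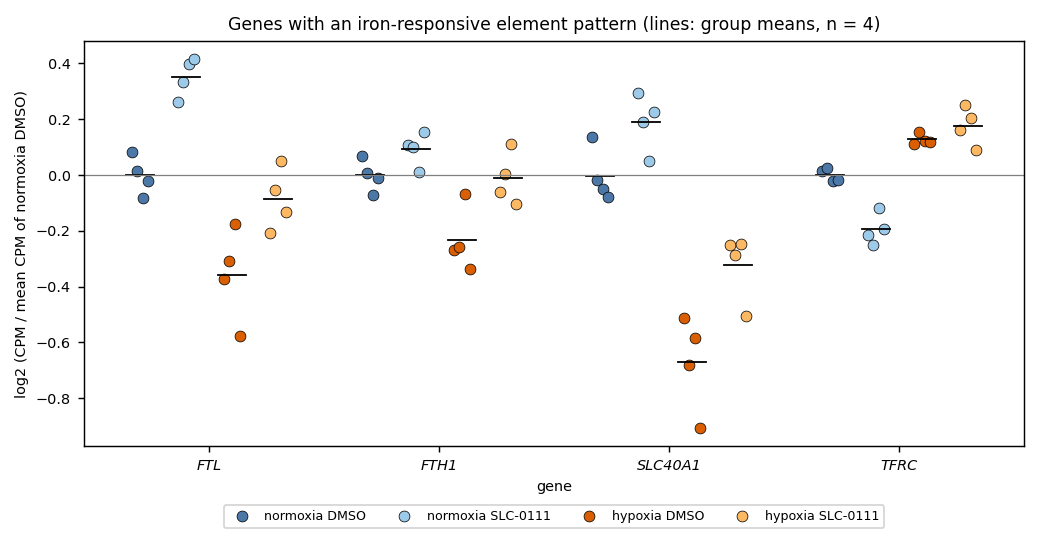
Log2 ratio of CPM to the mean of the normoxia DMSO libraries for the 4 genes whose iron-responsive element pattern was printed above, TF left out, with 1 point per library and lines at group means (n = 4). FTL, FTH1 and SLC40A1 had their lowest group mean in hypoxia DMSO, and TFRC had its lowest in normoxia SLC-0111.

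SLC11A2 (ENSG00000110911, chr12:50979401-51028566) encodes DMT1, which moves ferrous iron across membranes. Levels of SLC11A2 in the normoxia libraries were 84.1, 88.7, 91.7 and 86.6 CPM with DMSO and 86.3, 82.6, 79.1 and 83.5 CPM with SLC-0111. The hypoxia libraries held 174, 199.7, 206 and 197 CPM of SLC11A2 with DMSO and 151, 161, 158 and 151 CPM with SLC-0111. All hypoxia libraries were above all normoxia libraries, and in hypoxia every SLC-0111 library was below every DMSO library. Hypoxia raised SLC11A2 2.20-fold with DMSO (log2 change 1.14 ± 0.052 SE, adjusted p = 7.74e-15) and 1.87-fold with SLC-0111 (log2 change 0.90 ± 0.051 SE, adjusted p = 6.97e-13). SLC-0111 lowered it in hypoxia (log2 change -0.32 ± 0.051 SE, adjusted p = 9.64e-05), and in normoxia its difference of -0.084 ± 0.051 did not pass (adjusted p = 0.257). The difference between these effects, -0.24 ± 0.072, did not pass either (adjusted p = 0.0532); over the alternatives its adjusted p ran from 0.00145 to 0.263, and it passed without hypoxia DMSO replicate 1 (0.00724) and without normoxia SLC-0111 replicate 4 (0.0378).

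Promoters of TFRC and SLC11A2, which rose in hypoxia, and of FTL, which fell, are shown with the core letters of hypoxia response elements. The sequences are RefSeq windows of 300 bases, from 250 before to 50 after a start site, build GRCh38.p14, and 7 of the 10 genes had at least 1, for 12 windows in all. The cores searched on both strands were ACGTG and GCGTG, printed in capitals; ACGTG was found in 21.4% and GCGTG in 36.5% of 35116 promoters, and either in 48.4%. Of the 12 windows, 7 held either core. The TFRC window held 1 ACGTG, 88 bases before the start site.
TFRC, chr3:196082041-196082340, minus strand: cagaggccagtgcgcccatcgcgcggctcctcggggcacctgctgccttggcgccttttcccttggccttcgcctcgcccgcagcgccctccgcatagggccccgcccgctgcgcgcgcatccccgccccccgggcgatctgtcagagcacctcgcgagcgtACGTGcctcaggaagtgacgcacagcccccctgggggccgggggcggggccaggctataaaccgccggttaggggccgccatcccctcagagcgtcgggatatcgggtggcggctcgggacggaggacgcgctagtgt
The first SLC11A2 window held 4 copies of GCGTG and no ACGTG, and its other 3 windows held 1, 0 and 1 copies of GCGTG.
SLC11A2, chr12:51026335-51026634, minus strand: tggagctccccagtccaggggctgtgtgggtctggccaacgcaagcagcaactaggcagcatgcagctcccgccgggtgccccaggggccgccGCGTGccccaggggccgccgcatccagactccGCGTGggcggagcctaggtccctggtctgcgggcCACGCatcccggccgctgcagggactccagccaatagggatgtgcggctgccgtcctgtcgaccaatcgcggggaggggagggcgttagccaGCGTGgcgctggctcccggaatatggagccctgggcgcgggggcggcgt
The FTL window held 1 ACGTG and 2 GCGTG.
FTL, chr19:48965059-48965358, plus strand: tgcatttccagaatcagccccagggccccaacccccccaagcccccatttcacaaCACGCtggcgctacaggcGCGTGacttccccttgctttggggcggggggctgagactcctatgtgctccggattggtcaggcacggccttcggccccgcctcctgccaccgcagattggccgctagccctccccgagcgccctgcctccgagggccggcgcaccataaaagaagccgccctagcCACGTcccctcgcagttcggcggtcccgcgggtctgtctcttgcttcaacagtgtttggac
TF had 1 window with 1 ACGTG, chr3:133661748-133662047, and 1 with neither core, chr3:133746143-133746442. The window with ACGTG lies outside the counted TF gene, chr3:133745956-133796640, and the window with neither core lies within it. The windows of SLC40A1, which fell in hypoxia, and of HAMP held neither core, and 1 of the 2 windows of IREB2 held 1 GCGTG. A match is a description, and no match says only that these letters are not in that window.

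IREB2 (ENSG00000136381, chr15:78437431-78501456) encodes iron regulatory protein 2, one of the proteins that bind the elements printed above. With DMSO, IREB2 stood at 119, 122, 122 and 123 CPM in the normoxia libraries and at 135, 157, 132 and 157 CPM in the hypoxia libraries. With SLC-0111, IREB2 stood at 126, 133, 125 and 122 CPM in normoxia and at 135, 143, 145 and 138 CPM in hypoxia. Every hypoxia library was above every normoxia DMSO library, and the 2 hypoxia groups overlapped. IREB2 rose 1.21-fold in hypoxia with DMSO (log2 change 0.27 ± 0.053 SE, adjusted p = 1.79e-04) and 1.11-fold with SLC-0111 (log2 change 0.15 ± 0.052 SE, adjusted p = 0.0217). The second of these calls was lost without the unnumbered normoxia SLC-0111 library (adjusted p = 0.076) or hypoxia SLC-0111 replicate 3 (0.067), and by library size alone (0.057), by edgeR. SLC-0111 gave 0.060 in normoxia and -0.060 in hypoxia, neither past the test. Without the 3 libraries that stand apart, which leaves the unnumbered library and replicate 2 in hypoxia DMSO, the hypoxia value was -0.15 and passed (adjusted p = 0.0146), against adjusted p-values up to 0.979 over the alternatives.

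HAMP (ENSG00000105697, chr19:35280716-35285143) encodes hepcidin. It had 0, 3, 1 and 3 counts in the normoxia DMSO libraries and 2, 0, 5 and 3 in the normoxia SLC-0111 libraries, and 10, 15, 1 and 5 in hypoxia DMSO and 17, 15, 17 and 20 in hypoxia SLC-0111. In CPM every hypoxia library was above every normoxia library, all of them under 1 CPM. For hypoxia DMSO replicate 3, the library with the fewest counts, this rests on 1 count. In that library 3 counts would make 0.910 CPM, so the separation is not read as complete. Summed over a group, hypoxia held 6.20 times the normoxia CPM with DMSO (exact 95% interval 2.68 to 16.7, counting error only). With SLC-0111 it held 5.90 times (3.02 to 12.9). The ratios in this paragraph were taken over total counts without TMM factors, so deeper libraries weigh more. The filter on low counts was met in 2 of 4 hypoxia DMSO libraries, 4 of 4 hypoxia SLC-0111 libraries and 0 in normoxia, so the hypoxia ratios are given with no test. SLC-0111 against DMSO gave ratios of 1.40 in normoxia (0.482 to 4.34) and 1.33 in hypoxia (0.862 to 2.11), intervals that include no change.

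CP (ENSG00000047457, chr3:149162410-149222055) encodes ceruloplasmin, a plasma ferroxidase. CP was counted at 1.92, 1.65, 1.76 and 1.56 CPM in normoxia DMSO libraries and at 0.965, 1.19, 0.712 and 1.24 CPM in normoxia SLC-0111 libraries. CP reached 1.45, 1.28, 1.19 and 1.33 CPM in hypoxia DMSO libraries and 1.60, 2.21, 1.48 and 1.33 CPM in hypoxia SLC-0111 libraries. The normoxia SLC-0111 libraries were below every normoxia DMSO library, as were the hypoxia DMSO libraries, while the hypoxia SLC-0111 libraries overlapped both DMSO groups. CP fell with SLC-0111 in normoxia from 1.72 ± 0.155 CPM to 1.03 ± 0.241 CPM (SD, n = 4; log2 change -0.77 ± 0.20 SE, adjusted p = 0.00740), and was not past the test in hypoxia (0.29 ± 0.21). The 2 effects differed by 1.06 ± 0.29 (adjusted p = 0.0301). CP rose in hypoxia with SLC-0111 (log2 change 0.71 ± 0.20 SE, adjusted p = 0.00590) and gave -0.36 with DMSO, not past the test. With the protein-coding share of each library as a covariate, the fall in normoxia had an adjusted p of 0.097 and the rise in hypoxia 0.091, and the difference of effects lost its call without any 1 of normoxia DMSO replicates 1, 2 or 3, normoxia SLC-0111 replicate 4, hypoxia DMSO replicate 2 or unnumbered, or hypoxia SLC-0111 replicate 2, at adjusted p-values from 0.051 to 0.085, and with that covariate (0.054). CP shares 1418 exon bases with HPS3 on the opposite strand, which held 9933 counts against 613 for CP; without a known strand setting, reads of the 2 genes over those bases cannot be told apart. The HPS3 group means ran from 20.1 CPM with SLC-0111 in normoxia to 27.8 CPM with DMSO in hypoxia, and their part in the CP values was not tested.

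**Figure D3:**
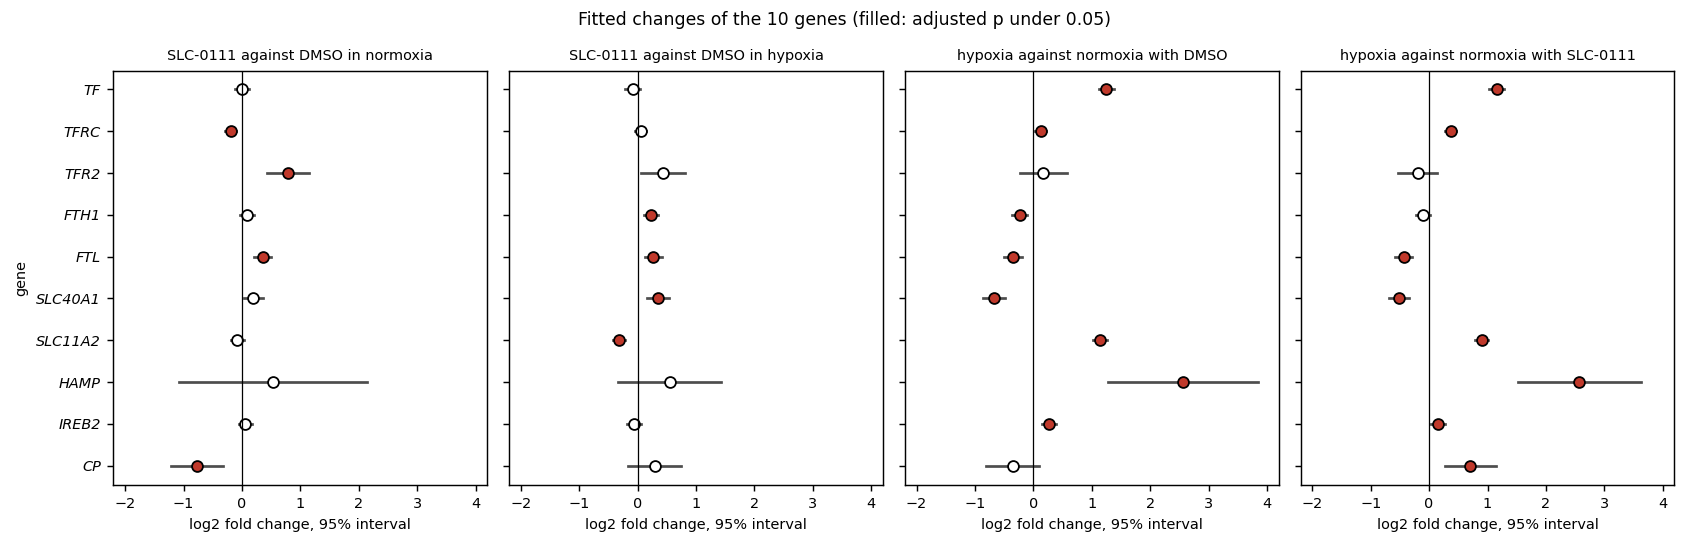
Fitted log2 change of the 10 genes with 95% intervals in the 4 comparisons, filled where the adjusted p was under 0.05. TF and SLC11A2 lie right of 0 in both hypoxia comparisons, and SLC40A1 and FTL lie left of 0 in both. FTL lies right of 0 in both SLC-0111 comparisons. HAMP met the filter through hypoxia libraries only, so its points in the hypoxia comparisons are descriptions and no test is read from them.

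Side by side, SLC-0111 changed 4 of the 10 genes in normoxia, 2 higher and 2 lower, where 23.6% of all tested genes were called, 12.4% higher and 11.2% lower. In hypoxia it changed 4, of which 3 were higher and 1 lower, where 16.3% were called, 9.14% higher and 7.11% lower. The called genes were TFRC, TFR2, FTL and CP in normoxia and FTH1, FTL, SLC40A1 and SLC11A2 in hypoxia. The difference between the effects was called for TFRC and CP, 2 of 10, both higher in hypoxia, where 5.99% of all genes were called, 2.87% higher and 3.13% lower. Without hypoxia DMSO replicates 1 and 3 and normoxia SLC-0111 replicate 4, 6 were called in each of the SLC-0111 comparisons and 4 for the difference, which added IREB2 and SLC11A2. Leaving out hypoxia SLC-0111 replicate 2 took the difference to 0. The shares of all tested genes above are those of the main fit. None was taken for the fits with libraries left out, so these counts are not read as a result about the 10 genes. The SLC-0111 and the hypoxia comparisons share libraries, so their values are given side by side and no overlap is read from them.

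Per kilobase of exon, with CPM divided by the GENCODE exon length, FTL had the highest level in normoxia DMSO, 3522 CPM per kb, followed by FTH1 at 152, TF at 48.2 and TFRC at 30.9. CP, at 0.236, and HAMP, at 0.0198, were the lowest. TF's exon model spans 26199 bases, so its level per kb is understated. Exon length also exceeded the principal GENCODE transcript for other genes, among them FTH1 (2030 against 1229 bases), CP (7296 against 4676) and HAMP (3010 against 652). For FTL both were 878 bases. FTH1 also shares 1267 exon bases with BEST1, and how reads over them, or reads that match its copies, were counted is not known. Their part in the level of FTH1 was not tested. Levels per kb are thus not strictly comparable between genes.

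The other genes of iron and heme metabolism were a list of 78, also chosen with earlier results of these data known, of which 70 were tested. In hypoxia with DMSO, 19 rose and 23 fell, where 25.0% of all tested genes rose and 24.8% fell, and with SLC-0111, 20 rose and 21 fell, where 23.9% of all rose and 24.3% fell. Of 19 genes listed for hepcidin control, 11 rose and 1 fell with DMSO. Their median log2 change was 0.39 beside -0.0022 over all tested genes. With SLC-0111, 12 rose and 1 fell, with a median of 0.30 beside -0.029. The list mixes genes that raise hepcidin with inhibitors, so no direction for hepcidin is read from these counts and medians. BMP6, a ligand that raises hepcidin, changed by 2.37 ± 0.30 (log2 ± SE), HJV, its co-receptor, by 1.96 ± 0.16, and SMAD7, an inhibitor of that pathway, by 1.62 ± 0.23, all with DMSO. Of 13 genes of mitochondrial iron and iron-sulfur clusters, 9 fell and 0 rose with DMSO, where the median was -0.38 beside the same -0.0022 and 24.8% of all tested genes fell; FDXR, ferredoxin reductase, changed by -0.97 ± 0.075 and ISCU, the cluster scaffold, by -0.54 ± 0.061. With SLC-0111 7 of the 13 fell, where 24.3% of all tested genes did. CPOX, an enzyme of heme synthesis, changed by 1.25 ± 0.069 and HMOX1, which breaks heme down, by 0.87 ± 0.052, while HP, haptoglobin, changed by -1.12 ± 0.090.

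With SLC-0111, 18 of the 70 rose and 5 fell in normoxia, where 12.4% of all tested genes rose and 11.2% fell, and 15 rose and 3 fell in hypoxia, where 9.14% rose and 7.11% fell. Of the 19 hepcidin-control genes, 8 rose in normoxia, and 6 rose and 1 fell in hypoxia, beside those same shares. TMPRSS6, a protease that lowers hepcidin, changed by 0.93 ± 0.093 in normoxia and 0.64 ± 0.094 in hypoxia. The other named genes of this list in normoxia were HJV, at 0.69 ± 0.17, BMP2, at 0.65 ± 0.13, and NEO1, at 0.31 ± 0.055. In hypoxia they were ATOH8, at 1.31 ± 0.25, ID1, at 0.65 ± 0.14, and FURIN, at 0.45 ± 0.055. No direction for hepcidin is read from these values. HEPH, hephaestin, a ferroxidase like CP, changed by 0.79 ± 0.057 in normoxia and 0.38 ± 0.057 in hypoxia, and by 0.77 ± 0.058 in hypoxia with DMSO.

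**Figure D4:**
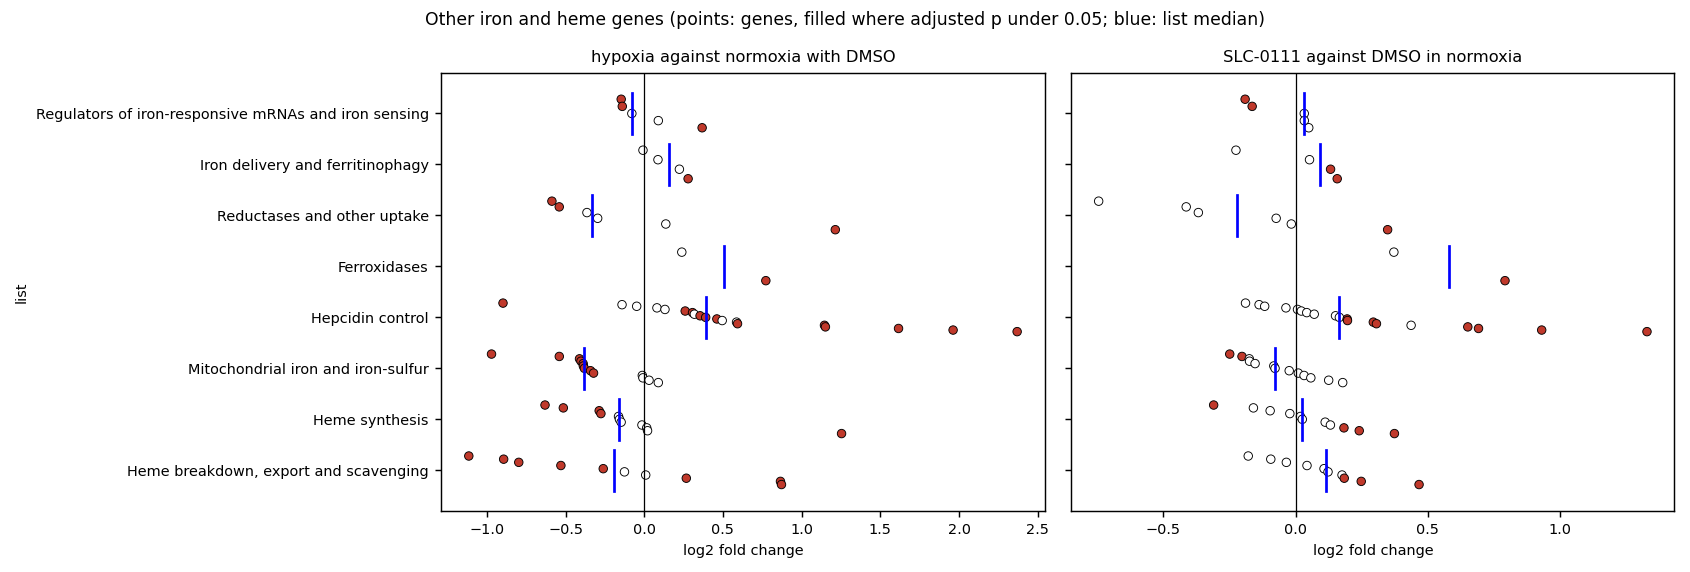
Log2 change of each tested gene of 8 iron and heme lists, for the hypoxia change with DMSO on the left and the SLC-0111 change in normoxia on the right, filled where the adjusted p was under 0.05 and with the list median as a blue line. In hypoxia the hepcidin-control list lies mostly right of 0 and the mitochondrial list left of it.

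Of 8 hepatoblastoma and hepatocyte markers, 7 had counts in every library, and the 8 summed to 11107 to 15602 CPM, most of it APOB, whose group means lay between 6915 and 9078 CPM. DLK1 had at most 5 counts in a group. With DMSO, from normoxia to hypoxia, the mean of ALB went from 76.8 to 25.2 CPM, of AFP from 708 to 434 and of TTR from 508 to 293. In the same comparison APOB went from 8251 to 6915 CPM and GPC3 from 1772 to 1679. HNF4A and APOA1 went the other way, from 340.4 to 519.5 CPM and from 1459 to 1693 CPM. The 5 macrophage markers, which hold CSF1R, summed to 3.34 to 4.09 CPM in normoxia DMSO, 5.36 to 6.78 in normoxia SLC-0111, 14.0 to 25.6 in hypoxia DMSO and 18.6 to 28.4 in hypoxia SLC-0111. CSF1R made up most of this sum. CD14 went from 0.868 to 2.23 CPM in hypoxia with DMSO and from 1.34 to 3.20 with SLC-0111, and CD163 from 0.373 to 1.07 and from 0.364 to 0.752, while PTPRC had 0 counts in every hypoxia library and CD68 had at most 5 counts in a group. The 5 endothelial and fibroblast markers summed to 80.2 to 84.9, 72.3 to 80.7, 103 to 117 and 91.4 to 99.6 CPM in the same order, mostly PECAM1 and PDGFRB. CDH5 stood at 0.110, 0.384, 0.562 and 1.43 CPM in that order of groups, and COL3A1 at 7 counts or fewer in a group. The part of other cell types, or of these liver marker changes, in the iron gene results was not tested.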

How the data were processed

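RNA sequencing of 16 HUH6 libraries was analysed from the raw counts per gene that the authors deposited. Per the submitters' processing notes, MultiQC 1.10.1, HISAT2, HISAT, HTSeq, edgeR 3.4.0 and the build GRCh38 were used; the strand setting, library kit and treatment of multiply mapped reads are not given in the sources used here. The deposited counts were not normalized. Identifiers, starts, ends and strands of all 58735 genes were identical to GENCODE 29. Libraries held 3298106 to 49248964 counts, and intervals on counts cover counting error only. R 4.3.3 with edgeR 4.0.16 was used: genes were kept by filterByExpr (18385 genes, at 0.375 CPM in 4 libraries), scaled by TMM and fitted with a robust quasi-likelihood model over the 4 groups (12 residual degrees of freedom, common BCV 0.0741), with Benjamini-Hochberg adjustment over all genes and 0.05 as threshold. CPM here carry TMM factors and, for per-kb levels, the exon length, except in the summed HAMP ratios, which used total counts alone. The members and the lists were chosen with earlier results of these data known. All 10 members were named, plus up to 4 called genes of largest change per list and comparison that reached 1 CPM in the group where they were higher, and the 3 protein-coding genes most like TFRC, TF and SLC40A1. Replicate pairs differed by more than sampling noise (chi-square per degree of freedom 2.27 or more). Alternatives were RLE scaling, library size alone, other filters, DESeq2 1.42.0, limma-voom 3.58.1, fits of only the groups compared, a protein-coding covariate, ferritin summed with its copies, a replicate block and leaving out each library; those without 3 libraries that stand apart, and with numbered libraries only, were added after seeing the data. The fit was tested on simulated data.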

Additional observations from a re-analysis of the deposited data

Results flagged for a closer look

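In groups of 4 libraries, a library was marked where it stood far from the other 3, which happens by chance in about 1 in 20 groups; 16 of 216 groups of the named genes were marked. The only one among the 10 iron genes was SLC40A1 in hypoxia SLC-0111 replicate 4, at 19.5 CPM where the others lay between 22.7 and 23.3. In hypoxia DMSO replicate 2, HJV stood at 4.41 CPM (5.47 to 5.66 in the others). In hypoxia DMSO replicate 3, FLVCR1 stood at 82.8 CPM (73.5 to 73.8 in the others) and CISD1 stood at 15.8 CPM (13.6 to 14 in the others). In hypoxia SLC-0111 replicate 1, SLC25A37 stood at 15.8 CPM (17.3 to 17.6 in the others). In hypoxia SLC-0111 replicate 4, HEPH stood at 214 CPM (238 to 239 in the others), FDXR stood at 38 CPM (41.2 to 41.5 in the others) and ID1 stood at 405 CPM (550 to 578 in the others). In normoxia DMSO replicate 1, FLVCR2 stood at 23.9 CPM (21 to 21.3 in the others) and SMAD7 stood at 71.5 CPM (68.1 to 68.4 in the others). In normoxia DMSO replicate 2, BMP6 stood at 0.652 CPM (0.256 to 0.306 in the others). In normoxia SLC-0111 replicate 4, MELTF stood at 302 CPM (317 to 318 in the others), TMPRSS6 stood at 17 CPM (20.8 to 21.1 in the others), LRP1 stood at 1230 CPM (1126 to 1136 in the others), HP stood at 35.1 CPM (49.7 to 50.8 in the others) and ACO1 stood at 128 CPM (137 to 138 in the others). 

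The SLC-0111 effect differed between hypoxia and normoxia by edgeR's interaction term for 9 of the named genes. The 7 outside the 10 iron genes are listed because they were called in this comparison, so their number is no result. They are 7 of 70 other iron and heme genes tested, where 5.99% of all tested genes were called, 2.87% higher and 3.13% lower. Among the 10 iron genes these were TFRC, by 0.24 on the log2 scale (adjusted p = 0.0201), and CP, by 1.06 (adjusted p = 0.0301). Among the others, hypoxia minus normoxia, the log2 differences were -0.42 for HEPH (adjusted p = 0.00293), 0.41 for FURIN (adjusted p = 0.0024), -0.35 for BMPR2 (adjusted p = 0.00588), 0.31 for ABCB8 (adjusted p = 0.0397), -0.35 for FECH (adjusted p = 0.0474), 0.45 for HP (adjusted p = 0.0288) and -0.26 for FLVCR1 (adjusted p = 0.0429), each with edgeR's test.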

How the results depend on the processing

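Most results kept their direction and their side of the threshold: of the values of the 10 genes under the alternatives, 1308 did, 21 lost a call, 23 gained one and 27 changed sign, none of these called. SLC-0111's effect on TF in normoxia changed sign, at -0.0085 with RLE scaling and with DESeq2, -0.069 by library size alone, -0.0066 with 1 CPM in 4 libraries, -0.0054 with limma-voom, -0.0038 with only the groups compared and -0.013 with numbered libraries alone, and ran from -0.029 to 0.062 when each library was left out. By library size alone it was -0.013 for IREB2 in normoxia and -0.018 for TFRC in hypoxia. The difference between oxygen conditions was 0.017 for FTL without the 3 libraries that stand apart, and for HAMP -0.026 with limma-voom, -0.10 with the protein-coding share and -0.39 to 0.36 when each library was left out. The cause was not tested.

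The count of other iron and heme genes called with SLC-0111 in hypoxia, 18, was 11 when only the groups compared were fitted, which uses fewer libraries. Of the 10 genes, 2 differed between oxygen conditions, but 1 with numbered libraries alone, 4 without the 3 libraries that stand apart and 0 to 3 when each library was left out; of the other genes, 7 differed, but 3 by library size alone, 4 with numbered libraries alone, 17 without the 3 libraries and 3 to 11 when each was left out. DESeq2 gave no adjusted p for CP there. The share of all genes called was not taken for the alternatives, so these counts are descriptions. HAMP could not be tested under the 1 CPM filter, nor, when only the groups compared were fitted, for SLC-0111 in normoxia and for hypoxia with DMSO; DESeq2 gave it no adjusted p for either SLC-0111 comparison or their difference.

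Replicate numbers paired the libraries at most in part, and the main fit had no replicate block. Same-numbered libraries correlated at -0.0314 to 0.351 (median 0.0764), not every pair over 0.1, and differently numbered ones at -0.300 to 0.217 (median -0.00676). The 3 pairs of number 4 correlated at 0.280, 0.238 and 0.351, and 8 of the 14 numbered libraries correlated best with one of their own number, a hint from the data and not the design. With the replicate block, SLC40A1 passed in normoxia with SLC-0111 (0.17, adjusted p = 0.0298), for 5 of the 10 genes there, and the other genes that differed between oxygen conditions were 11. HAMP, at most 20 counts in a library, is limited by depth.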
